A study of Mus musculus with 2 samples.

Results

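The 41 genes described here make, lengthen, desaturate and activate fatty acids, place them into membrane phospholipids, release them again, or oxidise them with lipoxygenases. They were chosen by gene symbol from a list of lipid genes around ferroptosis, and all 41 were found among the 21878 genes of both deposited tables. The 2 libraries came from primary chondrocytes of C57BL/6 mice after lentiviral delivery of a hairpin RNA. The control library (shNC) received a control hairpin, and the knockdown library (shGpx4) a hairpin against Gpx4, whose product reduces lipid hydroperoxides inside membranes. The labels give no age of the mice, no time after infection, and nothing on how many mice or cultures were pooled. With 1 library per group there is no replicate and no test, and each difference describes these 2 libraries.

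Saturated and monounsaturated fatty acids are made from cytosolic acetyl-CoA, while polyunsaturated ones are built from dietary precursors by desaturases and elongases. An acyl-CoA synthetase must activate a fatty acid before an acyltransferase can put it into a phospholipid. Phospholipids that carry polyunsaturated chains are the substrate of the peroxidation that kills cells in ferroptosis, and monounsaturated chains are known to protect against it.

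Levels are given in FPKM, in which read numbers are divided by the length of the gene and by the size of the library, so that genes can be compared with each other. The FPKM ratio is the level in shGpx4 divided by that in shNC, with an exact 95% interval that covers counting error only. The interval rests on the smallest reads that give both values. Where the true reads are a multiple, it is too wide and may hold 1 for that reason. The log2 ratio compares FPKM + 1 in shGpx4 with FPKM + 1 in shNC and understates differences of weakly expressed genes. A gene is called measured when its mean over both libraries was at least 1 FPKM, which held for 10997 genes in all. Library totals recovered from the FPKM values were 19729142 reads for shNC and 21313211 for shGpx4. Gpx4 itself was at 161 FPKM in the control and 96.2 FPKM in the knockdown, an FPKM ratio of 0.599 (0.569 to 0.630). Of 11 listed chondrocyte markers, 6 were measured, with summed levels of 1876 and 1817 FPKM. Comp made up most of that sum, at 1666 and 1421 FPKM. Col2a1 was at 8.96 and 58.4 FPKM and Lect1 at 124 and 270.0 FPKM (ratio 2.18), whereas Sox9 (ratio 0.835) and Col11a1 (ratio 0.885) were lower in shGpx4. Matn1 was listed at 0 in both libraries and Acan, the aggrecan gene, at 0 in shNC and 0.006 FPKM in shGpx4. Macrophage and leukocyte markers summed to 22.4 and 23.7 FPKM over 15 genes, and the leukocyte marker Ptprc was listed at 0 in both. Within that sum Lyz2 was at 7.67 and 1.86 FPKM (ratio 0.243, 0.169 to 0.343) and Cd14 at 9.19 and 17.1 FPKM (ratio 1.87, 1.62 to 2.15). The part of these differences in the lipid genes was not tested. Adipocyte markers summed to 7.99 and 5.72 FPKM over 9 genes. Pparg was at 3.79 and 3.17 FPKM, Fabp4 at 2.08 and 1.87 FPKM, and Lpl at 1.44 and 0.637 FPKM (ratio 0.443, 0.315 to 0.616). Adipoq was at 0.165 FPKM from at least 1 read in shNC and listed at 0 in shGpx4. In a bulk library, fewer cells of a type and less RNA per cell cannot be told apart.

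Of the 41 genes 31 were measured, with mean levels from 1.04 to 79.9 FPKM. Most of them were slightly higher in the shGpx4 library, led by the desaturase gene Fads2, the elongase gene Elovl7 and the acetyl-CoA carboxylase gene Acaca. On the FPKM + 1 scale these 3 were at least 1.5-fold higher, against 2.99% of all measured genes, and 0 were lower, against 1.96%. A difference of 25% or more upwards was found for 6 members, against 6.97% of all measured genes, and of 20% or more downwards for 1, against 8.7%. The log2 ratio was above 0 for 21 of the 31, whereas this held for 41.3% of all measured genes. The median log2 ratio of the members was 0.09, beside -0.04 over all measured genes. The FPKM ratio lay above 1 by its whole counting interval for 13 members, against 18.1% of all measured genes, and below 1 for 3 members, against 27.3%.

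**Figure D1:**
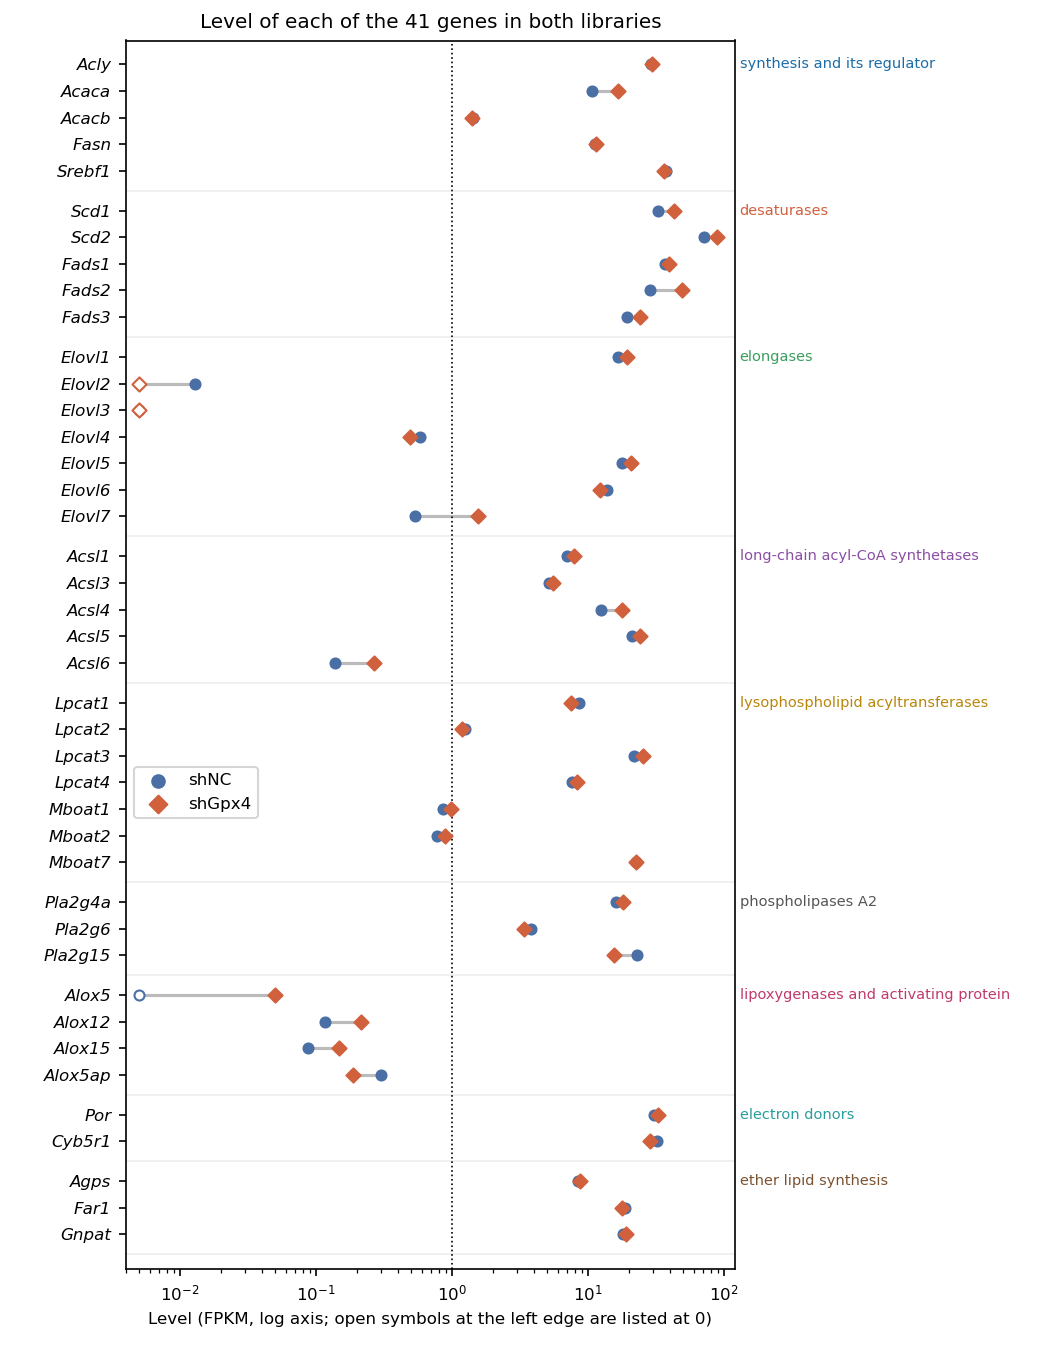
Level in FPKM (log axis) of each of the 41 genes in shNC (blue circles) and shGpx4 (orange diamonds), grouped by role; the dotted line marks 1 FPKM, and open symbols at the left edge are genes listed at 0 (for Elovl3 both libraries are at 0 and the symbols coincide). The pairs of symbols lie close together for most genes above 1 FPKM. Elovl7 (0.533 and 1.55 FPKM), Fads2 (28.4 and 48.6 FPKM) and Acaca (10.6 and 16.5 FPKM) stand farther apart, with the higher value in shGpx4. Pla2g15 (22.9 and 15.4 FPKM) also stands farther apart, with the higher value in shNC.

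The plot of levels shows that the members ranged widely in level, and several lay near 1 FPKM, such as Acacb, Lpcat2 and Mboat1. Scd2 had the highest mean level, and the other desaturases, Srebf1, Acly, Por and Cyb5r1 were all above 19 FPKM in both libraries. At the other end 10 genes were not measured, among them all lipoxygenase genes, and Elovl3 was listed at 0 in both libraries.

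The 4 enzymes of de novo synthesis and their regulator did not move together. Acaca, which encodes the cytosolic acetyl-CoA carboxylase that makes malonyl-CoA, was at 10.6 FPKM in the control and 16.5 FPKM in the knockdown, an FPKM ratio of 1.56 (1.47 to 1.65) and a log2 ratio of 0.59. Among all measured genes, 321 had a higher log2 ratio. The enzymes before and after it in the pathway did not share this difference. Acly, the ATP citrate lyase gene that supplies cytosolic acetyl-CoA, was at 29.1 FPKM in the control and 29.6 FPKM in the knockdown, and the counting interval of its FPKM ratio held 1 (1.02, 0.965 to 1.08). Fasn, the fatty acid synthase gene, was at 11.3 FPKM in the control and 11.4 FPKM in the knockdown (ratio 1.01, 0.954 to 1.07). Within a library, the Acaca level was 0.939 times that of Fasn in shNC and 1.45 times in shGpx4. Acacb, the mitochondrial carboxylase whose product restrains fatty acid oxidation, was much weaker, at 1.42 FPKM in the control and 1.40 FPKM in the knockdown. Srebf1 encodes SREBP1, the transcription factor that drives many of these genes and is itself regulated by proteolytic release from the membrane. Its level was 37.2 FPKM in the control and 36.0 FPKM in the knockdown, and the interval of the ratio again held 1 (0.968, 0.924 to 1.01). The annotated span of Acaca (chr11:84129635-84401651, GRCm38.p6) overlaps that of Tada2a, which was at 7.45 and 7.33 FPKM.

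All 5 desaturase genes were higher in shGpx4, against 41.3% of all measured genes, each with a counting interval above 1, against 18.1%. Their summed level was 188 FPKM in the control and 244 FPKM in the knockdown, 1.30 times higher, and their median log2 ratio was 0.34. Fads2, the delta-6 desaturase gene that begins the conversion of dietary polyunsaturated fatty acids, was at 28.4 FPKM in the control and 48.6 FPKM in the knockdown. Its FPKM ratio was 1.71 (1.52 to 1.93) and its log2 ratio 0.76, the highest of the members, and 216 measured genes had a higher one. Fads1, the delta-5 desaturase that acts later in the same conversion, differed far less, at 37.0 FPKM in the control and 39.2 FPKM in the knockdown (ratio 1.06, 1.01 to 1.12). The order of these levels was thus exchanged: the Fads2 level was 0.768 times that of Fads1 in shNC and 1.24 times in shGpx4. Fads3, a related gene whose product acts on sphingoid bases, was at 19.4 FPKM in the control and 24.1 FPKM in the knockdown (ratio 1.24, 1.16 to 1.33). The stearoyl-CoA desaturases, which make monounsaturated fatty acids, were close to each other in their ratios. Scd1 was at 32.4 FPKM in the control and 42.5 FPKM in the knockdown (ratio 1.31, 1.255 to 1.38). Scd2 was at 70.5 FPKM in the control and 89.2 FPKM in the knockdown (ratio 1.27, 1.23 to 1.30), and the level of Scd2 was 2.18 times that of Scd1 in shNC and 2.10 times in shGpx4. These are similar gene copies, among which reads may have been shared.

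The 3 Fads genes lie side by side on chromosome 19, Fads3 at chr19:10040855-10060113, Fads2 at chr19:10062765-10101503 and Fads1 at chr19:10182877-10196874 in GRCm38.p6. Neighbouring genes were higher, lower or level. On the Fads3 side Rab3il1 was at 4.31 FPKM in the control and 2.67 FPKM in the knockdown, Best1 at 1.34 and 2.37 FPKM, and the ferritin heavy chain gene Fth1 at 11977 and 14920 FPKM. On the Fads1 side Fen1 was at 4.40 and 4.78 FPKM, with a ratio interval that held 1 (0.899 to 1.31), and Tmem258 at 91.7 and 80.0 FPKM. The 250 bases before the starts of Fads2 and Fads3 that RefSeq's promoter table uses are shown, because these neighbouring genes had unequal ratios. The sequences are RefSeq's, from GRCm38.p6, written in the direction of transcription, chr19:10101504-10101753 on the minus strand for Fads2 and chr19:10041298-10041547 on the plus strand for Fads3, which lies inside the annotated span of that gene. Capitals mark the CCAAT box (CCAAT) and the GC box (GGGCGG), read on either strand.
Fads2: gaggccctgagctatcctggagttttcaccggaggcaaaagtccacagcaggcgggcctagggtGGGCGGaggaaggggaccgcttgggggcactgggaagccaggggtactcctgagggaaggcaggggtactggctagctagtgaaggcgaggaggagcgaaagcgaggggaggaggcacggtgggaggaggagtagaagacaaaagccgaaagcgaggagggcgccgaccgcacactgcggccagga
Fads3: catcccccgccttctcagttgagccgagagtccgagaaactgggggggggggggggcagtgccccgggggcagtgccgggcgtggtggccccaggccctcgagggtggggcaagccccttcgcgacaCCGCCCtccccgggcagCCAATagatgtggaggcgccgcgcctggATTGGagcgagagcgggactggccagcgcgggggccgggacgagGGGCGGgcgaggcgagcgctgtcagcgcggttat
The Fads2 window held 1 GC box and 0 CCAAT boxes, and the Fads3 window 2 of each. Of the 41 genes 35 had such windows, 43 windows in all, in which the same letters and 2 more motifs were searched on both strands. Scd1, Scd2, Fads1, Elovl3, Alox15 and Alox5ap had no window and were not searched. A CCAAT box was in 20 of the 43, against 33.8% of all 32851 mouse windows, and a GC box in 31, against 32.7%. The sterol regulatory element TCACNCCAC was in 1 window, of Acsl1, against 1.05% of all windows, and the E-box CACGTG in 2, of Elovl5 and Gnpat, against 6.02%. These are letter matches only, and a window without a match says nothing of factors that bind elsewhere.

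The elongase genes, which add carbon pairs to fatty acyl-CoA, were split between 3 abundant ubiquitous members and 4 weak ones. Elovl5, which elongates polyunsaturated fatty acids after the first desaturation, was at 17.7 FPKM in the control and 20.6 FPKM in the knockdown (ratio 1.17, 1.04 to 1.31). Elovl1, the elongase of saturated very long chains, was at 16.6 FPKM in the control and 19.2 FPKM in the knockdown (ratio 1.15, 1.06 to 1.253). The annotated span of Elovl1 overlaps that of the mitosis gene Cdc20, which was at 5.14 FPKM in the control and 11.9 FPKM in the knockdown, so reads may have been shared. Elovl6, which lengthens the palmitate made by fatty acid synthase, went the other way, from 13.7 FPKM in shNC to 12.2 FPKM in shGpx4 (ratio 0.895, 0.834 to 0.960). Elovl7 had the largest FPKM ratio of the measured members at a low level, 0.533 FPKM in the control and 1.55 FPKM in the knockdown, a ratio of 2.90 (2.15 to 3.97) from at least 58 and 182 reads. Its log2 ratio on the FPKM + 1 scale was 0.73, and with a pseudocount of 0.1 it was 1.38. Elovl4 was at 0.581 FPKM in the control and 0.492 FPKM in the knockdown, with an interval that held 1. Elovl2, the elongase of the longest polyunsaturated chains in liver, was at 0.013 FPKM from at least 1 read in shNC and listed at 0 in the knockdown, where 3 reads correspond to no more than 0.036 FPKM.

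The 4 measured long-chain acyl-CoA synthetase genes were higher in shGpx4, against 41.3% of all measured genes, Acsl4 by the most. Acsl4 encodes the synthetase that prefers arachidonic and adrenic acid and is required for ferroptosis in many cell types. Its level was 12.5 FPKM in the control and 17.8 FPKM in the knockdown, an FPKM ratio of 1.42 (1.33 to 1.52) and a log2 ratio of 0.48, and 437 measured genes had a higher one. Acsl3, which activates monounsaturated fatty acids and is tied to protection from ferroptosis, was at 5.13 FPKM in the control and 5.54 FPKM in the knockdown, with a ratio whose interval held 1 (1.08, 0.889 to 1.31). The Acsl4 level was thus 2.43 times that of Acsl3 in shNC and 3.21 times in shGpx4. Acsl5, the most abundant of the family here, was at 21.1 FPKM in the control and 24.0 FPKM in the knockdown (ratio 1.13, 1.05 to 1.22), and Acsl1 at 6.97 and 7.84 FPKM (ratio 1.12, 1.03 to 1.23). Acsl6, the brain and testis member, was not measured, at 0.137 FPKM in the control and 0.267 FPKM in the knockdown, where the reads were at least 18 and 38, and its FPKM ratio was 1.95 (1.09 to 3.64). Of the summed level of the 5 genes, Acsl4 took 27.2% in shNC and 32.1% in shGpx4, and Acsl5 46.1% and 43.3%. The 250 bases before the start of Acsl4 that RefSeq's promoter table uses (chrX:142390536-142390785, minus strand, RefSeq, GRCm38.p6) are shown since Acsl4 had the largest ratio of the measured members of the family, with the same capitals. They lie inside the annotated span of the gene, which begins farther upstream.
Acsl4: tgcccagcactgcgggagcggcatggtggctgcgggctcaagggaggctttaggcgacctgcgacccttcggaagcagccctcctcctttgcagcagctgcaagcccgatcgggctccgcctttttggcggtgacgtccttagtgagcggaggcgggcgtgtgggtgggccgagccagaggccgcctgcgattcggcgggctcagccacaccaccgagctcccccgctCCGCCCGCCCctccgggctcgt
This window held 2 GC boxes that overlap each other, and 0 CCAAT boxes.

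**Figure D2:**
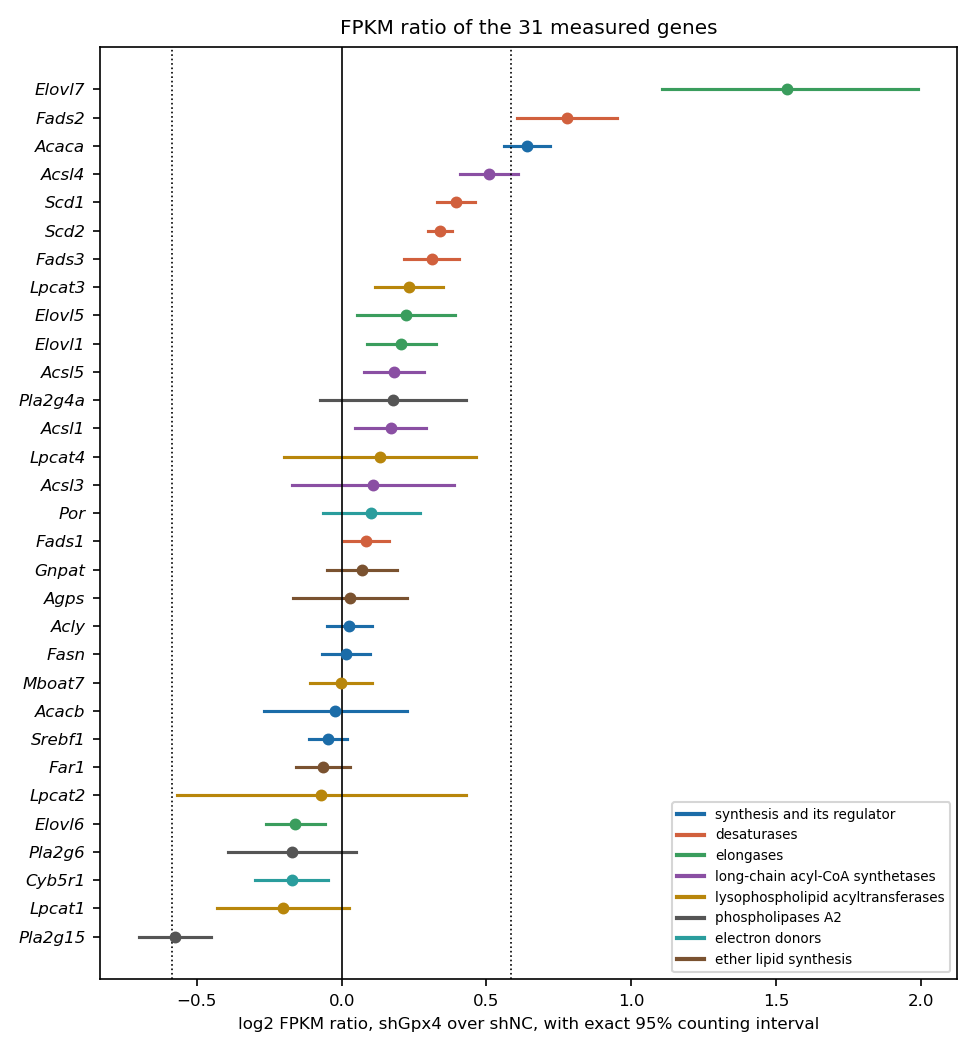
log2 FPKM ratio of shGpx4 over shNC for the 31 measured genes, in order, with exact 95% counting intervals as bars, coloured by role; dotted lines mark 1.5-fold. Elovl7, Fads2 and Acaca stand at the high end, followed by Acsl4, Scd1, Scd2 and Fads3, and Pla2g15 stands alone at the low end.

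Lysophospholipid acyltransferase genes differed little. Their enzymes put acyl chains back onto lysophospholipids. Lpcat3, which favours polyunsaturated chains and acts with Acsl4 in ferroptosis, was at 21.6 FPKM in the control and 25.3 FPKM in the knockdown (ratio 1.18, 1.08 to 1.27), the 1 measured member of this family with an interval above 1. Its annotated span overlaps that of Emg1, which was at 26.0 and 24.6 FPKM. Mboat7, the acyltransferase that places arachidonic acid into phosphatidylinositol, was at 22.4 FPKM in the control and 22.3 FPKM in the knockdown (ratio 0.998, 0.927 to 1.08). Lpcat1, which favours saturated chains and is known from lung surfactant, was at 8.61 FPKM in the control and 7.48 FPKM in the knockdown, and its interval held 1 (0.869, 0.742 to 1.02). Lpcat4 was at 7.57 and 8.29 FPKM, Lpcat2, an acetyltransferase of platelet-activating factor synthesis, at 1.24 and 1.18 FPKM, Mboat1 at 0.851 and 0.989 FPKM, and Mboat2 at 0.779 and 0.888 FPKM. Mboat1 and Mboat2 have been described as ferroptosis suppressors that favour monounsaturated chains, and both were under the limit for measured genes. The intervals of all 4 held 1. The Lpcat3 level was 2.50 times that of Lpcat1 in shNC and 3.38 times in shGpx4.

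Among the phospholipases A2, which release a chain from a phospholipid, Pla2g15 was lower in shGpx4 and the other two had intervals that held 1. Pla2g15, the lysosomal enzyme, was at 22.9 FPKM in the control and 15.4 FPKM in the knockdown, an FPKM ratio of 0.672 (0.616 to 0.732) and a log2 ratio of -0.55. This was the lowest ratio of the measured members, and 249 of all measured genes were lower. Pla2g4a, the cytosolic enzyme that releases arachidonic acid for prostaglandin and leukotriene synthesis, was at 15.9 FPKM in the control and 18.0 FPKM in the knockdown. Its ratio was 1.13 (0.950 to 1.35), from at least 240 and 293 reads. Pla2g6, the calcium-independent enzyme that can remove peroxidised chains, was at 3.79 FPKM in the control and 3.37 FPKM in the knockdown (ratio 0.889, 0.763 to 1.04). The Pla2g15 level was 1.43 times that of Pla2g4a in shNC and 0.852 times in shGpx4. The 250 bases before the annotated start of Pla2g15 (chr8:106150104-106150353, plus strand, RefSeq, GRCm38.p6) are shown because it stood at the low end.
Pla2g15: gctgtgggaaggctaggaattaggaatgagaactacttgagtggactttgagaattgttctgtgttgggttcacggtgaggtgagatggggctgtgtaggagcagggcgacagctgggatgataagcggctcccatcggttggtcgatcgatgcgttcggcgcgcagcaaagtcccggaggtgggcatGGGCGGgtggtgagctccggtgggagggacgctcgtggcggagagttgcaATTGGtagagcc
This window held 1 GC box and 1 CCAAT box, the latter read on the opposite strand.

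Lipoxygenase genes, whose enzymes oxidise polyunsaturated chains directly, were at or near 0 in both libraries. Alox15, the 12/15-lipoxygenase gene most often named in ferroptosis, was at 0.087 FPKM in the control and 0.147 FPKM in the knockdown, from at least 16 and 29 reads. Alox12 was at 0.116 FPKM in the control and 0.214 FPKM in the knockdown. Alox5, the leukotriene-forming enzyme of leukocytes, was listed at 0 in the control, where 3 reads correspond to no more than 0.054 FPKM, and at 0.050 FPKM from at least 3 reads in the knockdown. Alox5ap, which encodes the protein that presents arachidonic acid to Alox5, was at 0.300 FPKM from at least 3 reads in shNC and 0.185 FPKM from at least 2 reads in shGpx4. The counting intervals of all 4 held a ratio of 1, so no difference was detectable at this depth.

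The electron donors Por and Cyb5r1, oxidoreductases that can feed membrane lipid peroxidation through hydrogen peroxide, were abundant and differed little. Por, the cytochrome P450 reductase gene, was at 30.5 FPKM in the control and 32.8 FPKM in the knockdown (ratio 1.07, 0.955 to 1.21), from at least 537 and 623 reads. Cyb5r1 was at 32.0 FPKM in the control and 28.3 FPKM in the knockdown (ratio 0.887, 0.812 to 0.969). The genes of ether lipid synthesis, which begins in peroxisomes and yields plasmalogens, were nearly level. Far1, the reductase that supplies fatty alcohol, was at 18.5 FPKM in the control and 17.7 FPKM in the knockdown. Gnpat, the acyltransferase of the first step, was at 18.0 and 18.9 FPKM, and Agps, which forms the ether bond, at 8.47 and 8.65 FPKM. All 3 intervals held 1.

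Other lipid genes were set beside the members as 9 lists with 148 entries, of which 146 were found and 117 measured. Of these 117, 0 were at least 1.5-fold higher, against 2.99% of all measured genes, and 1 was at least 1.5-fold lower, against 1.96%. The median log2 ratio of the 117 was -0.01. The list named for control of the SREBP pathway gave 10 measured genes between -0.19 and 0.14 on the log2 scale. It also holds transcription factor genes outside that pathway, Mlx and Mlxip among them. Srebf2, the SREBP of cholesterol synthesis, was at 12.9 FPKM in the control and 14.3 FPKM in the knockdown. In the same list Mlxip (0.12), Mbtps2 (-0.18) and Mlx (-0.19) were the others farthest from 0. In the list named for supply of acetyl-CoA, citrate and NADPH, 10 of 11 measured genes were above 0, against 41.3% of all measured genes. The list also holds Mcat, Mecr and Oxsm, genes of mitochondrial fatty acid synthesis. Mcat (0.004) and Mecr (0.032) lay just above 0 in log2 ratio, and Oxsm was the 1 gene below it. A counting interval above 1 was found for 5 of the 11, against 18.1%. Idh1, the cytosolic isocitrate dehydrogenase gene, was at 55.0 FPKM in the control and 80.7 FPKM in the knockdown (ratio 1.47, 1.37 to 1.57), and G6pdx, which opens the pentose phosphate pathway, at 44.1 and 55.7 FPKM (ratio 1.26, 1.195 to 1.33). Aacs (0.23) was higher and Oxsm (-0.23) lower in log2 ratio.

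Partners of the elongation cycle and cytochrome b5 genes had a median log2 ratio of 0.03 over 10 measured genes. Cyb5b (0.33) and Hacd3 (0.10) lay above 0, and the dehydratase gene Hacd4 (-0.43) and Tecr (-0.12) below it. Uptake, activation and binding genes had a median of -0.10 over 12 genes. There the fatty acid binding protein gene Fabp5 (1.81 against 0.788 FPKM, log2 ratio -0.65) was the 1 gene past 1.5-fold, Acot2 (-0.24) and Acot13 (-0.23) were lower and the acyl-CoA binding protein gene Dbi (0.28) was higher. Glycerolipid and phospholipid assembly genes had a median of 0.00 over 29 genes, with Cds1 (0.37) and Dgat2 (0.32) at the high end and Chkb (-0.37) and Crls1 (-0.33) at the low end. Among the other phospholipases the median was -0.12 over 11 genes, and Pla2g16 (-0.50), Pla2g4b (-0.42), Abhd12 (-0.31) and Pla2g5 (-0.26) were the farthest from 0. Plasmalogen and peroxisome genes had a median of -0.05 over 15 genes, led by Scp2 (0.37), Pex3 (-0.19), Pex19 (-0.17) and Pxmp2 (0.16). Of the further lipoxygenase and leukotriene genes 2 of 9 were measured, Ggt5 (0.22) and Lta4h (-0.13), and Alox8, Alox12b, Alox12e and Ltc4s were listed at 0 in both libraries.

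Fatty acid oxidation genes lay on the other side of 0 from the desaturases. Of 17 measured genes 14 had a log2 ratio below 0, the median was -0.15, and the counting interval lay below 1 for 11, where among all measured genes 58.7% had a log2 ratio below 0 and 27.3% an interval below 1. Acadm, the medium-chain acyl-CoA dehydrogenase gene, was at 53.3 FPKM in the control and 41.9 FPKM in the knockdown (ratio 0.785, 0.738 to 0.836). Eci1 (-0.31) and Acaa2 (-0.27) were also lower, while Cpt2 (0.29), a carnitine palmitoyltransferase gene of mitochondria, was higher. After centring or rescaling, between 12 and 14 of the 17 were below 0. The share of all measured genes above 0 then lay between 40.8% and 50.8%.

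**Figure D3:**
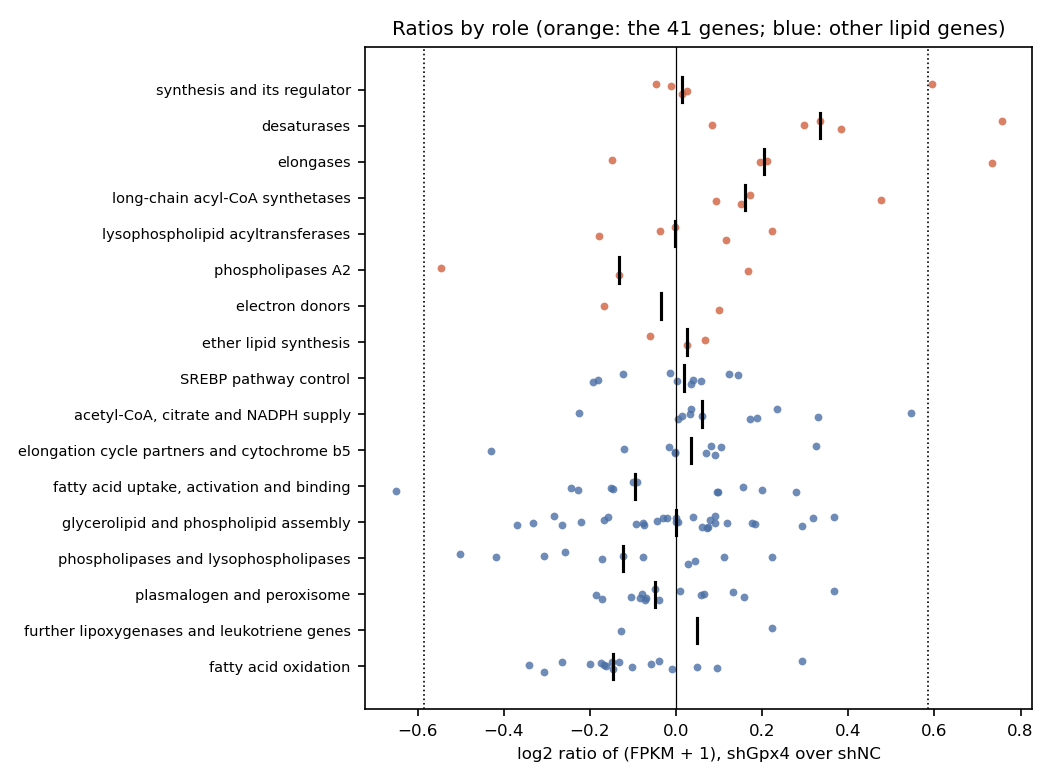
log2 ratio of (FPKM + 1) in shGpx4 over shNC for each measured gene, by role: the 31 measured members in orange and the other lipid genes in blue, with a black bar at each list's median and dotted lines at 1.5-fold. The desaturases lie to the right of 0 with a median of 0.34, and the fatty acid oxidation genes mostly to the left with a median of -0.15.

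**Figure D4:**
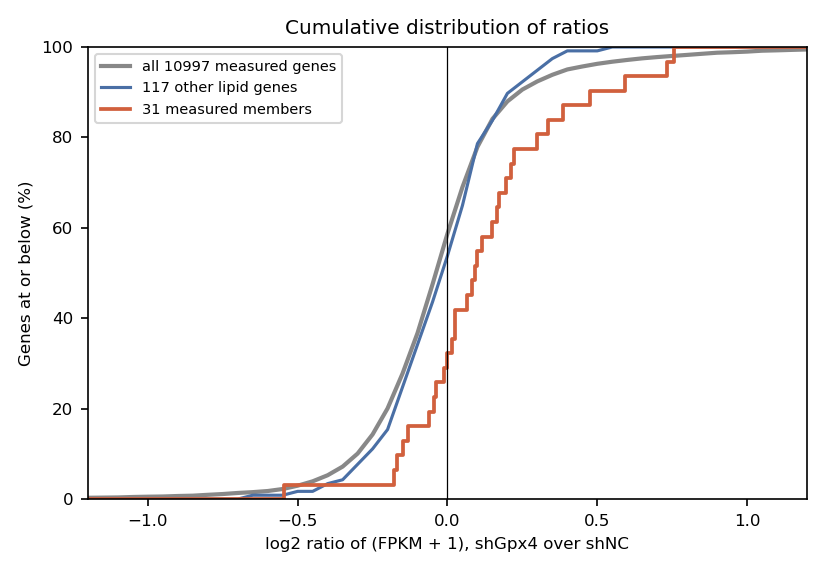
Share of genes (%) at or below each log2 ratio of (FPKM + 1), shGpx4 over shNC, for all 10997 measured genes (grey), the 117 other measured lipid genes (blue) and the 31 measured members (orange). The line of the members runs to the right of the other lines over most of the range, with medians of 0.09, -0.01 and -0.04 for members, other lipid genes and all measured genes.

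The libraries also differed outside lipid metabolism. Cell division genes were higher in shGpx4, with a median log2 ratio of 1.05 over 10 genes and summed levels of 34.0 and 80.3 FPKM, and Mki67, the proliferation marker, was at 2.11 and 6.07 FPKM. Fibroblast and synovial markers summed to 4310 FPKM in the control and 6731 FPKM in the knockdown over 8 genes, and their median log2 ratio was 0.43. Dcn made up most of that sum, at 2808 and 5042 FPKM. Of the 8 genes 7 had a log2 ratio above 0, and Col1a2 was lower (ratio 0.964, 0.954 to 0.974). The part of these differences in the lipid genes was not tested. Recovered length, the smallest whole length that gives both FPKM values, also moved with the ratio. The true length may be a multiple of it, so a bin of recovered length may differ from one of gene length. All measured genes were ranked by recovered length and cut into 4 equal bins. A log2 ratio above 0 was found for 34.1% of the shortest bin and 48.5% of the longest. Among the members 5 of 6 in the shortest bin, 4 of 7 in the next, then 6 of 9, and 6 of 9 in the longest were above 0. By level, 1 of the 4 members with a mean of 1 to 5 FPKM was above 0, 11 of 15 with 5 to 20 FPKM and 9 of 12 with 20 FPKM or more, where among all measured genes the shares lay between 40.2% and 42.9%.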

How the data were processed

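Messenger RNA was measured in 2 libraries, grouped by the treatment in the labels. The authors deposited 1 table per library, whose values were read as FPKM from the values themselves and from Cufflinks, which the submitters' processing notes name with Trimmomatic, HISAT2 and the mouse build GRCm38. Neither versions and settings nor the use of strand in counting is given, so overlapping genes may share reads; 27 members overlap another annotated gene and 9 a protein-coding one. The library kit was a stranded one for mRNA, per the labels' protocols.

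Ratios were log2 of (FPKM + 1), without rescaling. The commonest ratio among weak genes, 388 of them, gave the library totals, with which the values of all 15153 genes above 0 divided into whole reads over a whole length, within 1e-09. The reads used are the smallest that give both values, and they make up 89.9% (shNC) and 90.0% (shGpx4) of the totals. The true ones may be a multiple, which by itself makes exact Clopper-Pearson 95% intervals from them too wide. PCR reads are not independent molecules, which makes the intervals too narrow. Intervals and the 3-read limit cover counting error only and hold no variation between cultures. The computation was tested on simulated data.

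The members and lists were chosen with earlier results of these data known. The genes named are the 41 members, Gpx4, and up to 4 measured genes of each other list with the largest absolute log2 ratio; genes listed at 0, marker genes, genes next to the Fads genes or overlapping a member were named after their values were seen, and the cell division list was added then. Alternatives were to add 0.1 FPKM instead of 1, to centre ratios on their median, to rescale by the 75th percentile, to a common sum or by a mean of log ratios with 30% of ratios and 5% of levels trimmed at each end, to use recovered reads with 0.5 added, to require a mean of 5 or no minimum, and to count from 25% higher or 20% lower. Locations and promoter sequences come from RefSeq (GRCm38.p6). Software was scipy 1.17.1, numpy 2.4.6 and pandas 2.3.3 in Python 3.11.15, with matplotlib 3.10.9 for plots.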

Additional observations from a re-analysis of the deposited data

How the results depend on the processing

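With 1 library per group, no result has a replicate check. No paired analysis was possible because each group holds 1 library and no test was made. The count of 3 members at least 1.5-fold higher was 3 under every change of pseudocount, scaling or reads and with no filter, in each case Acaca, Elovl7 and Fads2, and 2 among 27 members at or over a mean of 5 FPKM. The count of 0 lower members was 0 under all of these. With the size rule set to 25% higher or 20% lower, 6 members were higher and 1 was lower. The median log2 ratio of the members ranged from 0.08 with no filter to 0.13 after rescaling by the 75th percentile. Centring or rescaling by the 75th percentile put 24 of 31 members above 0 instead of 21, and the trimmed mean 23, since Acacb and Mboat7, and Lpcat2 or Srebf1 in 1 of these settings each, crossed 0. These settings moved all genes upwards. The share of all measured genes above 0 rose from 41.3% to between 49.9% and 50.8%. Of 186 alternative values of single members 182 moved by less than their counting error, and 4, of Scd2 and Elovl7, moved by more. Changes of sign were counted only among members past 1.5-fold. Those lie too far from 0 for these alternatives to reverse, so their count of 0 is no check. The list medians were examined under the same alternatives after seeing the data. Lists with medians near 0 (lysophospholipid acyltransferases, electron donors, phospholipid assembly, and the chondrocyte and macrophage markers) took the other sign after centring or rescaling by the percentile or the trimmed mean. The counting intervals of the 4 lipoxygenase and activating protein genes, Elovl2 and Elovl4 held 1, so no difference was detectable at this depth, and Elovl3 had 0 reads.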
